A study of Mus musculus with 2 samples.

Results

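Neutrophils pack their granules in a fixed order while they mature, and 10 genes that mark the steps of that order were followed here in newborn mouse molar germs. The genes were taken by symbol from a list: Mpo, Elane and Prtn3 for primary (azurophil) granules, Camp, Ngp and Ltf for secondary (specific) granules, and Mmp8, Retnlg, Csf3r and Il1b for late maturation. All 10 were found among the 31253 features measured. They were read mainly in granulocyte-gated cells, which are cells with at least 20 UMIs (unique molecular identifiers, the counted molecules) of S100a8 and S100a9 together or at least 2 UMIs of Mpo. The gate held 144 of 15244 kept cells in the deletion library and 161 of 13255 in the control library. The members were chosen by their measured UMIs in these 2 libraries, with earlier results of the data in view, so the levels below describe the libraries and carry no test.

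The study asked what loss of Edar, the ectodysplasin receptor, in epithelium does to the tooth germ. Germs of mandibular first molars came from newborn C57BL/6 mice of the genotypes K14cre;Edarfl/fl (the deletion) and Edarfl/fl (the control, which carries the same floxed alleles and no Cre), and single cells were captured on the BD Rhapsody system. The K14cre transgene is driven by the keratin 14 promoter and acts in epithelium, so neutrophils of the deletion mice are not its target. Each genotype was 1 library, and the number of animals in a library is not given in the sources used here. No difference between the libraries can therefore be set against the variation between animals, and every interval below is a 95% interval of counting error alone.

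A neutrophil begins as a dividing precursor that makes myeloperoxidase and serine proteases for the primary granules. It then makes antimicrobial proteins for the secondary granules, stops dividing, adds gelatinase-type granules and surface receptors, and leaves the marrow under the control of granulocyte colony-stimulating factor (CSF3). Mature neutrophils have little RNA and turn to cytokine transcripts such as interleukin 1 beta. In a tooth germ they are a small minority of the cells, and the source of those captured here was not tested.

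The deletion library held 62158879 UMIs in 16029 barcodes and the control library 73375441 UMIs in 13990 barcodes, with a median depth per kept cell of 3329 in the deletion and 4444 in the control library. Only 4 barcode sequences occurred in both libraries. Edar stood at 21.1 CPM (UMIs of a gene scaled to a common total of UMIs in the same cells; interval 17.8 to 24.9) in deletion epithelium-like cells and at 34.6 CPM (31.1 to 38.4) in control ones. The gated cells held 0 Edar UMIs in the deletion library and 1 in the control library. Of the gated cells, 111 deletion and 125 control cells belonged to a neutrophil-like cluster built without the 10 genes, S100a8 and S100a9. Apart from S100a8 and S100a9, which define the gate, its gated cells held all 8 listed neutrophil markers, which summed to 11020 CPM in the deletion and 13434 CPM in the control library, against 809 and 575 CPM in the other gated cells. Listed markers of other cells in the neutrophil-like gated cells summed to 1533 CPM in the deletion and 1753 CPM in the control library for 9 mesenchyme genes, 1250 and 1126 CPM for 9 monocyte and dendritic genes, 767 and 806 CPM for 9 mast and basophil genes and 61.0 and 388 CPM for 9 macrophage genes, with no UMI of 7 erythroid genes. The 7 listed osteoclast genes summed to 1220 and 2289 CPM. That list includes Mmp9, also a listed neutrophil marker, and its other 6 genes had no UMI in the deletion library. The part of all these marker UMIs in the results below was not tested. Another 32 gated cells in each library fell in cluster 9. It was left unnamed because mast cell and monocyte genes (Cpa3, Ly6c2, Cma1) led it together and no mast and basophil marker reached 25% of its cells. The gated cells outside the neutrophil-like cluster, 33 deletion and 36 control, held monocyte and dendritic genes at 5847 and 4243 CPM. Of them 31 and 32 cells had 3 or more such UMIs, against 2 and 4 cells for mast and basophil genes.

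Some members share a chromosome, and the promoters of the members differ in 2 short letter patterns. On the plus strand of chromosome 10 (GRCm38, GENCODE M21), Prtn3 spans positions 79874476 to 79883174 and Elane 79886247 to 79888215, with 3072 bases between them. Camp (minus strand, 109847379 to 109849617), Ngp (plus, 110419747 to 110423012) and Ltf (plus, 111019271 to 111042767) lie far apart on chromosome 9. There are 570129 bases between Camp and Ngp and 596258 between Ngp and Ltf, and genes in between were not looked for. The 250 bases before the RefSeq start of 6 members are shown because these genes carry the patterns of expression described below: the primary granule pair, the 3 secondary granule genes, and Il1b. The sequences are from RefSeq for GRCm38.p6, at chr10:79879417-79879666 for Prtn3, chr10:79886062-79886311 for Elane, chr9:109849457-109849706 for Camp (minus strand), chr9:110419558-110419807 for Ngp, chr9:111019042-111019291 for Ltf and chr2:129371140-129371389 for Il1b (minus strand). Capitals mark the letters TTGCNNAA or TTNNGCAA, the core read by C/EBP factors, and GAGGAA or its reverse TTCCTC, read by PU.1.
Prtn3: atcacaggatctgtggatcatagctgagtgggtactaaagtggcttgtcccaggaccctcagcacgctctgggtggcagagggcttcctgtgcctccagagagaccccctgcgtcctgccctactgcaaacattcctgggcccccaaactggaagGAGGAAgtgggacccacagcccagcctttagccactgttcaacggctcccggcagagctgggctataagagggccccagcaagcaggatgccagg
Elane: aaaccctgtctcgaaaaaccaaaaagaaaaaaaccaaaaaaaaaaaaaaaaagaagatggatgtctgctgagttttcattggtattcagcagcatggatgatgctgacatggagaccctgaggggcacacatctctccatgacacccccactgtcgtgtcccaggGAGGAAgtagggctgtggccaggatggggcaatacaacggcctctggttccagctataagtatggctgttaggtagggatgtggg
Camp: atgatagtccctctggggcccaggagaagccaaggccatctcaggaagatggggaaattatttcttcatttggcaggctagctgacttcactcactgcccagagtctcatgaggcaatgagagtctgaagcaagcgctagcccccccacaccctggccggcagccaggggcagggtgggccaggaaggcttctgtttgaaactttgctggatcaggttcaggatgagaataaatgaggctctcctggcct
Ngp: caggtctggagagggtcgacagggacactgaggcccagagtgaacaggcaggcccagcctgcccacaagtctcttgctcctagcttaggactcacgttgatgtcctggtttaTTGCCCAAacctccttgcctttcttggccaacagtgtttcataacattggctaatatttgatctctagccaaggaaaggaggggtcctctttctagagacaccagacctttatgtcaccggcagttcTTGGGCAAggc
Ltf: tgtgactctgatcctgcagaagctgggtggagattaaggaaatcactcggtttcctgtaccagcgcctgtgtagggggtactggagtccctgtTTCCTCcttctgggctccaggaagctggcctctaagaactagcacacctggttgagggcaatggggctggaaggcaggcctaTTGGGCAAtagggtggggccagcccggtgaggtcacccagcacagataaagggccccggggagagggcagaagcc
Il1b: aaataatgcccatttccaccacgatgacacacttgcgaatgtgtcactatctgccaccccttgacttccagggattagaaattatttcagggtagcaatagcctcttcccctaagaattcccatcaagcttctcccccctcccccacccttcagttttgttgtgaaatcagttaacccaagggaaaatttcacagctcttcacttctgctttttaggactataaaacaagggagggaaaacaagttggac
The capitals in Prtn3 and Elane are a single GAGGAA each, which begins 95 and 85 bases before the start. In Ngp they are 2 C/EBP cores, 138 and 11 bases before the start, and in Ltf a C/EBP core 75 bases before the start and a TTCCTC 157 bases before it. Camp and Il1b held neither pattern in this window. Over all 10 members, searched on both strands, the C/EBP core occurred in 4 (Ngp, Ltf, Mmp8 and Retnlg) and GAGGAA in 6 (Mpo, Elane, Prtn3, Ltf, Mmp8 and Csf3r). Over 32851 mouse promoter windows of the same length the shares were 9.56% and 23.3%. TGTGGT, the RUNX core, was in none of the 10 and in 4614 of the 32851 windows. A match of letters describes the window and is not a bound site. RefSeq and GENCODE starts can differ, and for Prtn3 the whole window lies inside the GENCODE span given above.

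On a maturation index the steps lay in the textbook order over gated cells of both libraries. Cells were placed on this index, the log2 ratio of 13 late to 6 early neutrophil genes that include no member. Each member was given the mean index of the gated cells, weighted by its CPM in each cell, so the richest cells weigh most. The early list holds Ctsg, a primary granule protease gene, and Fcnb, which was found in cells with secondary granule UMIs (below). The order of these steps is thus partly built into the index. Mpo is also a gate gene, and it alone brought 2 deletion and 7 control cells into the gate. Mpo, the enzyme that makes hypochlorous acid, came earliest, at -1.73 in the deletion and -2.21 in the control library. Elane (neutrophil elastase) lay at -0.90 in the deletion and 1.27 in the control library, and Prtn3 (proteinase 3) at 0.11 and 0.48. These 2 were the members whose ranks differed between the libraries, and in the control library Elane rested on 22 UMIs in 6 cells. Of the gated cells with an Mpo UMI, 4 of 6 in the deletion library and 10 of 11 in the control library lay outside the neutrophil-like cluster. Inside it, Mpo lay at -0.93 in the deletion library and, from 1 UMI, at 6.37 in the control library, with Elane at -0.68 and 5.63, and Prtn3 at -0.27 in the deletion library. The early control position of Mpo thus came from cells of other clusters.

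The secondary granule genes lay close together in the middle. Camp, the precursor of the antimicrobial peptide CRAMP, stood at 5.44 in the deletion and 6.26 in the control library. Ngp, a cystatin-related granule protein, stood at 5.84 and 6.58, and Ltf (lactoferrin, which binds iron) at 5.86 and 6.61. All 3 sat at a lower index in the deletion library, with differences, deletion minus control, of -0.83 for Camp, -0.74 for Ngp and -0.75 for Ltf. The late genes came last and were closer between libraries: Mmp8 (neutrophil collagenase) at 7.42 in the deletion and 7.62 in the control library, Il1b at 7.45 and 7.69, Csf3r (the CSF3 receptor) at 7.65 and 7.81, and Retnlg (resistin-like gamma) at 7.69 and 7.83. Of 33 pairs of members from different steps, 33 were in order in each library. Within the neutrophil-like cluster alone, 33 pairs were in order in the deletion and 32 in the control library. With every cell thinned to 1000 UMIs, 33 pairs were in order in the deletion and 26 in the control library.

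**Figure D1:**
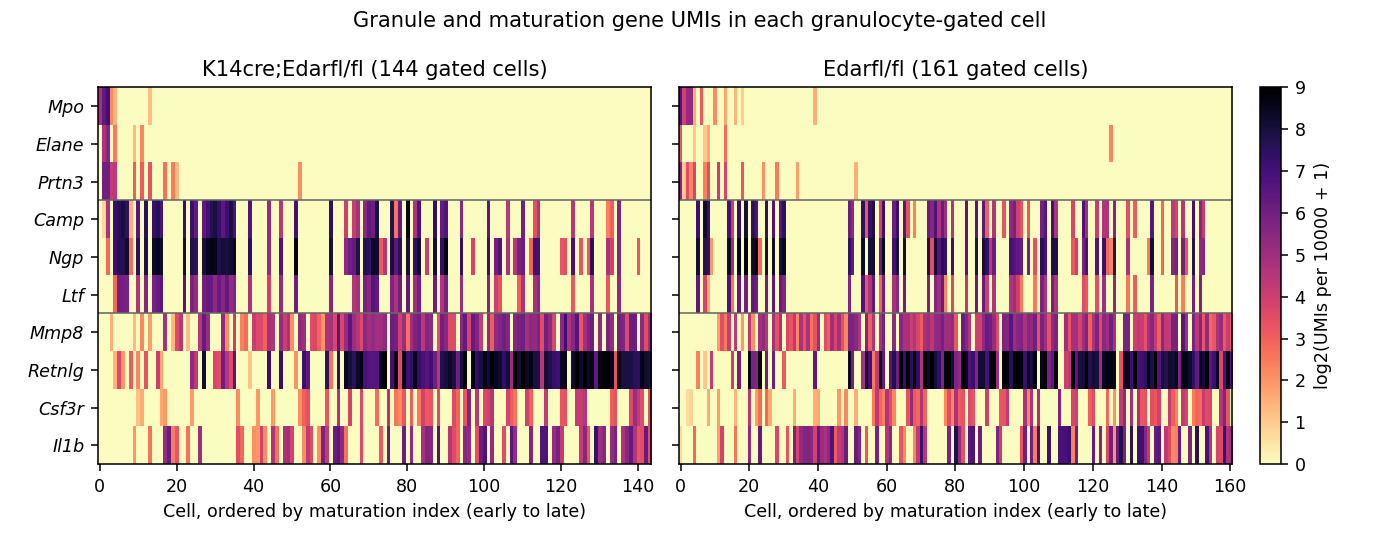
UMIs of each gene (rows, from primary granule to late) in every granulocyte-gated cell (columns, ordered by the maturation index), as log2(UMIs per 10000 + 1); K14cre;Edarfl/fl on the left (144 cells), Edarfl/fl on the right (161 cells). Mpo, Elane and Prtn3 fill a few cells at the early end, Camp, Ngp and Ltf share their cells, and Retnlg and Mmp8 cover most of the later cells.

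Within the gate, primary granule transcripts lay mostly in a handful of cells. Mpo had 231 UMIs in 6 of 144 gated deletion cells and 296 UMIs in 11 of 161 gated control cells, and the 3 richest cells held 98.3% and 91.6% of them. Elane had 76 UMIs in 5 deletion cells and 22 UMIs in 6 control cells. Prtn3 had 185 UMIs in 11 deletion cells and 148 UMIs in 14 control cells. The richest deletion cell held 128 Mpo, 39 Elane and 98 Prtn3 UMIs, with 75 of Ctsg (cathepsin G, another primary granule protease), and the next held 89, 31 and 43, with 17 of Camp. The richest control cell held 157 Mpo, 13 Elane, 70 Prtn3 and 99 Ctsg UMIs. The next control cells, with 64 and 50 Mpo UMIs, held no Elane, S100a8 or S100a9 UMI but 23 and 8 UMIs of Cd34 and 6 and 2 of Kit, which mark stem and progenitor cells. A control cell with 14 Mpo UMIs held 102 UMIs of the basophil protease Mcpt8 and 29 of Gata2, and a deletion cell with 10 Mpo UMIs held 12 of Mcpt8 and 22 of Cpa3.

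Within the neutrophil-like gated cells, Mpo, Elane and Prtn3 had 90, 34 and 55 UMIs in the deletion library, all in the same 2 cells, against 1, 3 and 9 UMIs in the control library. In these cells the 3 genes were called higher and Il1b lower by the rule of size set out below, against 7.46% of 3337 genes called higher, 3.09% called lower and 10.5% in either direction. The primary granule values rest on 2 cells.

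The secondary granule genes were found almost wholly in gated cells. Camp had 1825 UMIs in gated deletion cells and 1703 in gated control cells, which were 99.0% and 99.4% of its UMIs over all kept cells. For Ngp the shares were 99.0% and 99.3%, for Ltf 97.9% and 99.0%, and for Retnlg 94.2% and 98.9%. In mesenchyme-like cells, which should lack these transcripts, Camp stood at 0.297 CPM in the deletion and 0.192 CPM in the control library, and Ngp at 0.836 and 0.481 CPM. The Ngp UMIs lay in 22 deletion and 14 control cells, with up to 6 in 1 cell. Whether these UMIs came from free RNA in the suspension was not tested. Camp was found in 38.9% of gated deletion cells and 40.4% of gated control cells, Ngp in 48.6% and 42.2%, and Ltf in 36.8% and 34.2%. The 3 genes came together: of neutrophil-like gated cells with at least 3 of their UMIs in sum, Camp was detected in 54 of 59 deletion and 58 of 60 control cells, and Ltf in 53 and 52. Taking the whole neutrophil-like cluster, including cells below the gate, such cells were 43.7% of 135 in the deletion library (35.2 to 52.5%) and 43.8% of 137 in the control library (35.3 to 52.5%).

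Il1b, which encodes a cytokine that starts much of the inflammatory response, was low in cells with secondary granule transcripts. In neutrophil-like gated cells with 3 or more UMIs of Camp, Ngp and Ltf, Il1b had 13 UMIs over 59 deletion cells (77.0 CPM, 41.0 to 132) and 10 UMIs over 60 control cells (59.2 CPM, 28.4 to 109). In those with fewer than 3, called cells without secondary granule UMIs from here on, it had 218 UMIs over 52 deletion cells (3588 CPM, 3127 to 4097) and 533 UMIs over 65 control cells (5668 CPM, 5197 to 6170). Cells without secondary granule UMIs thus had 46.6 times the Il1b of those with them in the deletion library (26.7 to 88.9) and 95.8 times in the control library (51.7 to 201). Their median depth was lower, at 1143 UMIs in the deletion and 1270 in the control library, against 2348 and 2555 in cells with secondary granule UMIs. In cells thinned to 1000 UMIs, the cells with secondary granule UMIs held 0 of 116 Il1b UMIs in the deletion library and 4 of 392 in the control library.

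**Figure D2:**
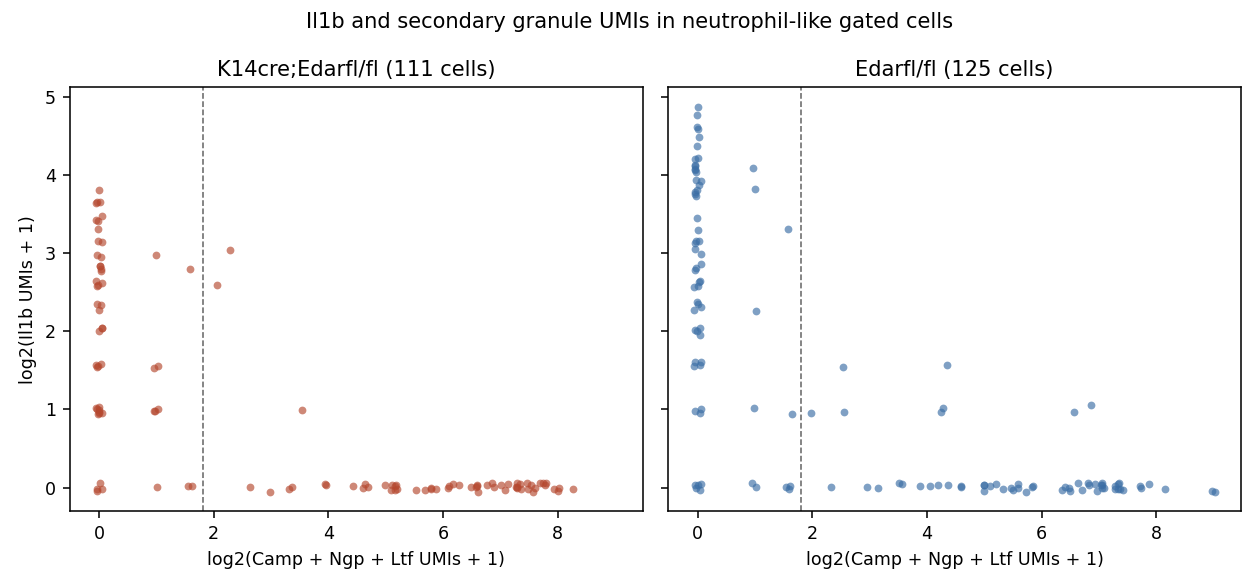
Il1b UMIs against the summed Camp, Ngp and Ltf UMIs in each neutrophil-like gated cell, both as log2(UMIs + 1) with a small jitter; K14cre;Edarfl/fl on the left (111 cells), Edarfl/fl on the right (125 cells). The dashed line separates cells with under 3 secondary granule UMIs from those with 3 or more; to its right 3 deletion and 8 control cells hold any Il1b.

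Csf3r was also several times lower in cells with secondary granule UMIs in both libraries, while Retnlg and Mmp8 differed less. Csf3r, the receptor through which CSF3 sustains neutrophils, stood at 88.8 CPM in deletion cells with secondary granule UMIs and 905 CPM in those without. In the control library the values were 195 and 1053 CPM. Its counts were low (15, 55, 33 and 99 UMIs, in that order). Cxcr2, the chemokine receptor of mature neutrophils, went the same way, with 284 and 1185 CPM in the deletion and 704 and 1744 CPM in the control library.

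Retnlg was high on both sides of the split and higher in cells without secondary granule UMIs, by 2.32 times in the deletion (2.17 to 2.49) and 1.13 times in the control library (1.07 to 1.20). It had 10869 CPM in deletion cells with secondary granule UMIs and 25262 CPM in those without, and 20143 and 22841 CPM in the control cells. Mmp8 ran in opposite directions in the libraries: 1901 CPM with and 3242 CPM without secondary granule UMIs in the deletion library, and 3013 and 1978 CPM in the control library. Cells with secondary granule UMIs were set apart by further genes of that step that are no members. Cebpe, the transcription factor needed for secondary granules, had 19 UMIs in the deletion and 17 in the control cells with secondary granule UMIs and 0 in both sets without. Fcnb (ficolin B) had 49 and 46 UMIs against 0 and 0, and Chil3 (a chitinase-like protein) 214 and 224 against 0 and 0.

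**Figure D3:**
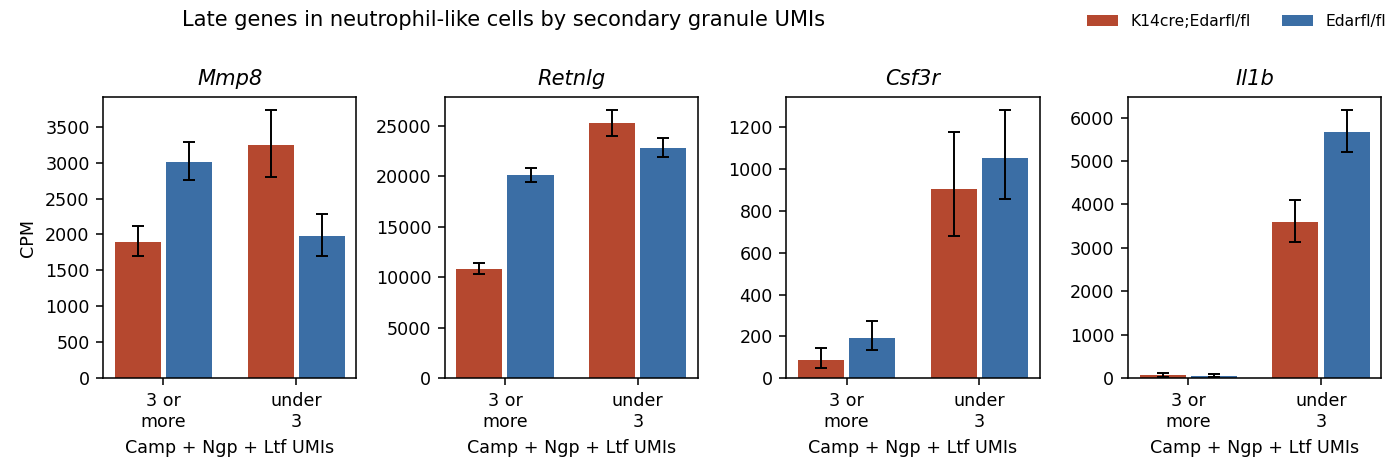
CPM of Mmp8, Retnlg, Csf3r and Il1b in neutrophil-like gated cells with 3 or more, or under 3, summed Camp, Ngp and Ltf UMIs; in each pair K14cre;Edarfl/fl stands left of Edarfl/fl, and error bars are 95% exact Poisson intervals. Il1b and Csf3r are low in cells with secondary granule UMIs in both libraries; Retnlg in those cells is lower in the deletion library.

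Among cells with secondary granule transcripts, more held cell cycle transcripts in the deletion library. Of these cells, 20 of 59 (33.9%, 22.1 to 47.4%) in the deletion library and 4 of 60 (6.67%, 1.85 to 16.2%) in the control library held at least 2 UMIs of 12 cell cycle genes. The 2 counting intervals do not overlap. Each of the 12 genes was found in more deletion than control cells, although Ccnb1 (4 and 5 UMIs), Birc5 (10 and 14) and Cenpf (3 and 8) had fewer UMIs in the deletion library. Mki67, a proliferation marker, had 54 UMIs in 15 deletion cells and 13 UMIs in 4 control cells. Mcm5, of the replicative helicase, had 24 UMIs in 16 deletion cells and 7 UMIs in 3 control cells, and Rrm2, a subunit of ribonucleotide reductase, had 44 UMIs in 12 and 15 UMIs in 4. Of neutrophil-like gated cells without secondary granule UMIs, 2 of 52 deletion cells (3.85%) and 5 of 65 control cells (7.69%) held at least 2 cell cycle UMIs. None of these was an Mki67 UMI in either library. Thinned to 1000 UMIs, the shares among cells with secondary granule UMIs were 29.1% of 55 deletion cells and 7.02% of 57 control cells. With 1 library a genotype, this difference cannot be told apart from one between animals or dissociations.

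Cells with cell cycle transcripts carried the secondary granule genes but little Mmp8 or Retnlg in both libraries, with only 4 such cells in the control library. In the 20 deletion and 4 control cells with at least 2 cell cycle UMIs, Ngp stood at 21272 and 28008 CPM and Camp at 13282 and 23327 CPM. Mmp8 stood there at 337 CPM (29 UMIs, all in 3 cells) in the deletion library and at 0 UMIs in the control library. It stood at 3525 and 3546 CPM in the 39 deletion and 56 control cells with fewer cell cycle UMIs. Retnlg stood at 3059 and 118 CPM in the cells with at least 2 cell cycle UMIs and at 18975 and 23689 CPM in the others. Il1b had 12 UMIs (140 CPM), all in 2 cells, in the deletion and 0 UMIs in the control cells with cell cycle UMIs. The others held 1 UMI (12.1 CPM) in the deletion and 10 UMIs (69.7 CPM) in the control library. The gap in Retnlg between the libraries was smaller among the cells with fewer cell cycle UMIs. Its log2 ratio, deletion over control and on the scale of CPM + 5 as all log2 ratios here, was -0.89 over all cells with secondary granule UMIs and -0.32 in those with fewer than 2 cell cycle UMIs (count ratio 0.75 to 0.85).

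Summed over the whole gate, 5 members were above and 5 below the control level in the deletion library, and 1 passed the rule of size. By that rule a gene is called when it has 50 CPM or more in 1 library, differs at least 2-fold on CPM + 5, and has a counting interval of its ratio that excludes 1. Of the 10 members 1 was called higher, Elane, and 0 were called lower. Over all 3532 genes tested, 2.24% were called higher, 1.76% lower and 3.99% in either direction, and the median log2 ratio was 0.17 for the members and -0.02 for all genes. A share of 1 in 10 over so few genes reads nothing beyond that background. Elane stood at 203 CPM (160 to 254) in the deletion and 46.1 CPM (28.9 to 69.9) in the control library, a log2 ratio of 2.02. Without the richest cell of each library it stood at 103 and 19.5 CPM. The 2 richest deletion cells held 39 and 31 of its 76 UMIs, and leaving out both was not tested. Elane was found in 5 of 144 deletion and 6 of 161 control cells.

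The secondary granule genes were a little higher in the deletion library, with Camp at 4876 and 3572 CPM (log2 ratio 0.45), Ngp at 9148 and 7140 CPM (0.36) and Ltf at 1900 and 1424 CPM (0.41). With equal weight for each of 3 bins of the index these ratios were 0.00, -0.04 and 0.01. Mpo stood at 617 CPM in the deletion and 621 CPM in the control library, and Prtn3 at 494 and 310 CPM. None of the late genes was called: Retnlg at 9025 and 11675 CPM (-0.37), Csf3r at 203 and 298 CPM (-0.54) and Mmp8 at 1662 and 1829 CPM (-0.14, with a count ratio of 0.82 to 1.01 that includes 1). With equal weight for each bin their ratios were 0.02 for Retnlg, -0.23 for Csf3r (-0.57 to 0.09) and 0.13 for Mmp8 (0.01 to 0.26).

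**Figure D4:**
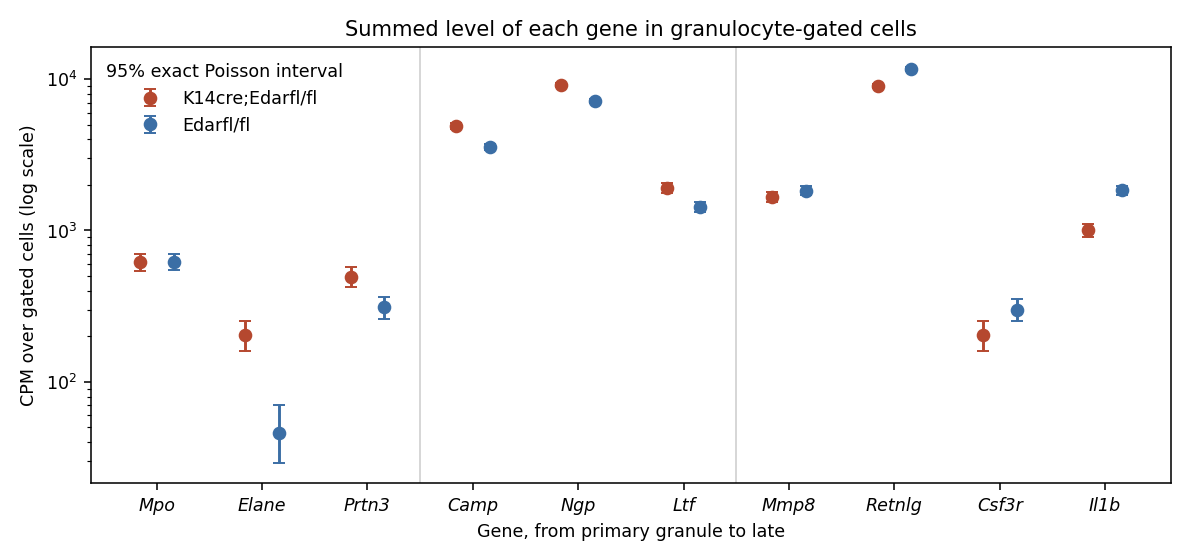
CPM of each gene summed over granulocyte-gated cells, on a log scale, with 95% exact Poisson intervals; for each gene K14cre;Edarfl/fl stands left of Edarfl/fl, and grey lines separate primary, secondary and late genes. Elane lies apart at 203 and 46.1 CPM, and Il1b at 1002 and 1842 CPM.

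Il1b had the largest difference of the late genes over the gate, and the ratio was smaller with equal weight for each index bin. It stood at 1002 CPM (903 to 1109) in gated deletion cells and 1842 CPM (1722 to 1968) in gated control cells, a log2 ratio of -0.88 that misses the 2-fold rule. With equal weight for each bin of the index the ratio was -0.49 (-0.64 to -0.34). In the lowest bin Il1b stood at 430 CPM (351 to 522) in the deletion and 1089 CPM (967 to 1222) in the control library. Of that bin 27 of 54 deletion and 15 of 48 control cells were neutrophil-like. In the middle bin the intervals overlapped, at 1770 CPM (1510 to 2061) in the deletion and 2143 CPM (1858 to 2460) in the control library. In the highest bin they did not, at 2465 CPM (2022 to 2976) and 3304 CPM (2983 to 3650). An Il1b UMI was found in 50.0% of 144 deletion cells and 54.0% of 161 control cells, and after thinning to 1000 UMIs in 32.0% and 47.1%. The gate, at 20 UMIs, itself cuts into the cells that hold Il1b. In neutrophil-like cells without secondary granule UMIs the median S100a8 and S100a9 sum was 28 UMIs in the deletion and 46 in the control library. As a share of UMIs this sum was not low in the highest bin, at 53084 and 56315 CPM, against 44408 and 29267 CPM in the lowest. Below the gate lay 24 deletion and 12 control cells of the neutrophil-like cluster, none with 3 secondary granule UMIs. With them included, Il1b in cells without secondary granule UMIs stood at 4106 CPM (3686 to 4561, 76 cells) in the deletion library and 6132 CPM (5676 to 6615, 77 cells) in the control library. Csf3r in the same cells stood at 1003 and 1111 CPM and Retnlg at 19658 and 19847 CPM. Mmp8 went the other way, with 225 UMIs (2655 CPM) in the deletion and 187 UMIs (1717 CPM) in the control library.

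The highest bin of the maturation index held a smaller share of the deletion cells. No early index UMI was found in 109 of 144 gated deletion and 137 of 161 gated control cells, so among these the index follows the late genes alone. All gated cells were cut into 3 equal bins by the index, and the highest bin held 24.3% of gated deletion cells (17.6 to 32.1%) and 41.6% of gated control cells (33.9 to 49.6%), and the lowest bin 37.5% and 29.8%. The highest bin was not free of secondary granule transcripts, with Ngp in 15 of its 35 deletion and 30 of its 67 control cells. Over all neutrophil-like cells, gated or not, the same index range held 33.3% of deletion cells (25.5 to 42.0%) and 52.6% of control cells (43.9 to 61.1%). Of the same cells, 76 of 135 in the deletion and 77 of 137 in the control library were without secondary granule UMIs, nearly equal shares. The cell filter bears on this share, since 16 gated barcodes of the deletion library and 5 of the control library were lost to it, with 11 and 1 of them holding at least 3 Il1b UMIs. With no cell filter the highest bin held 26.9% of gated deletion barcodes (20.2 to 34.4%) and 39.8% of gated control barcodes (32.3 to 47.6%), intervals that overlap. The gate as a whole took 0.945% of kept deletion cells (0.797 to 1.11%) and 1.21% of kept control cells (1.04 to 1.42%), shares that dissociation and dead cell removal can set.

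Few other neutrophil genes passed the rule of size. Short of it, Cxcr2 stood at 339 CPM in the deletion and 619 CPM in the control library, and Mmp9 at 751 and 1256 CPM, both index genes. In their lists, 1 of 12 receptor and migration genes and 8 of 19 secondary and tertiary granule genes had a ratio above 0. None of 6 tested further primary granule genes and none of 19 secondary and tertiary granule genes was called, with medians of 0.02 and -0.11. Lcn2 (lipocalin 2) stood at 4285 CPM in the deletion and 3811 CPM in the control library, and Cybb, the NADPH oxidase subunit, at 1681 and 1095 CPM. Of 12 receptor and migration genes 1 was called lower, Selplg, the selectin ligand, at 88.2 and 185 CPM, and 11 had a log2 ratio at or below 0. Of 8 transcription factors 1 was called higher, Hes1, at 77.5 CPM (29 UMIs) in the deletion and 12.6 CPM (6 UMIs) in the control library. None of 10 genes of the IL-1 and CSF3 axis was called, with a median of -0.36 and Nlrp3, the inflammasome sensor that leads to cleavage of interleukin 1 beta, at 852 and 1093 CPM. Of 9 cell cycle genes 2 were called higher, Tyms at 53.4 and 16.8 CPM and Rrm2 at 179 and 73.4 CPM, with a median of 0.39.

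Across gated cells, the genes most like each group of members were named by their Pearson correlation with its summed level, a description over 144 deletion and 161 control cells that share 1 library each. Lcn2 (mean r 0.79), Cd177 (0.77), Anxa1 (0.74), Stfa3 (0.73), Ifitm6 (0.70) and Adpgk (0.69) were nearest to Camp, Ngp and Ltf. Mmp9 (0.68, itself in the index), C5ar1 (0.65), Csta2 (0.63), S100a11 (0.59), Stfa2 (0.56) and Fpr1 (0.55) were nearest to the late genes. Paics, Rpl36al, Pa2g4, Ran, Ssrp1 and Nop10 were nearest to Mpo, Elane and Prtn3, at 0.51 to 0.56. The last set rests on the few deep cells that hold primary granule UMIs.

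Outside neutrophils the members parted company. Il1b was the least restricted: only 17.8% of its UMIs in kept deletion cells and 28.7% in kept control cells lay in the gate. Macrophage-like cells held 1034 UMIs in the deletion library (314 CPM, 295 to 334) and 1494 in the control library (296 CPM, 281 to 311), and cluster 9 stood at 1720 and 1851 CPM. In these 2 classes the libraries differed less in Il1b than neutrophil-like cells did, which had 1424 and 2440 CPM over all their cells. The difference between these differences was not tested. Cluster 9 also held Mmp8 at 480 and 451 CPM and almost no Retnlg, with 0 UMIs in 112 deletion cells (up to 9.62 CPM) and 6 UMIs in 103 control cells. Csf3r stood at 394 CPM in deletion and 554 CPM in control neutrophil-like cells and at 49.5 and 42.8 CPM in cluster 9. Macrophage-like cells held 46 Csf3r UMIs in 532 deletion cells and 58 in 568 control cells. The ligand gene Csf3 had 52 UMIs (14.4 CPM) in deletion and 23 UMIs (4.75 CPM) in control endothelium-like cells, 25 UMIs (7.59 CPM) and 26 UMIs (5.15 CPM) in macrophage-like cells, 7 UMIs (7.34 to 37.6 CPM) and 7 UMIs (6.02 to 30.8 CPM) in cluster 9, and 1 and 0 UMIs in neutrophil-like cells.

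**Figure D5:**
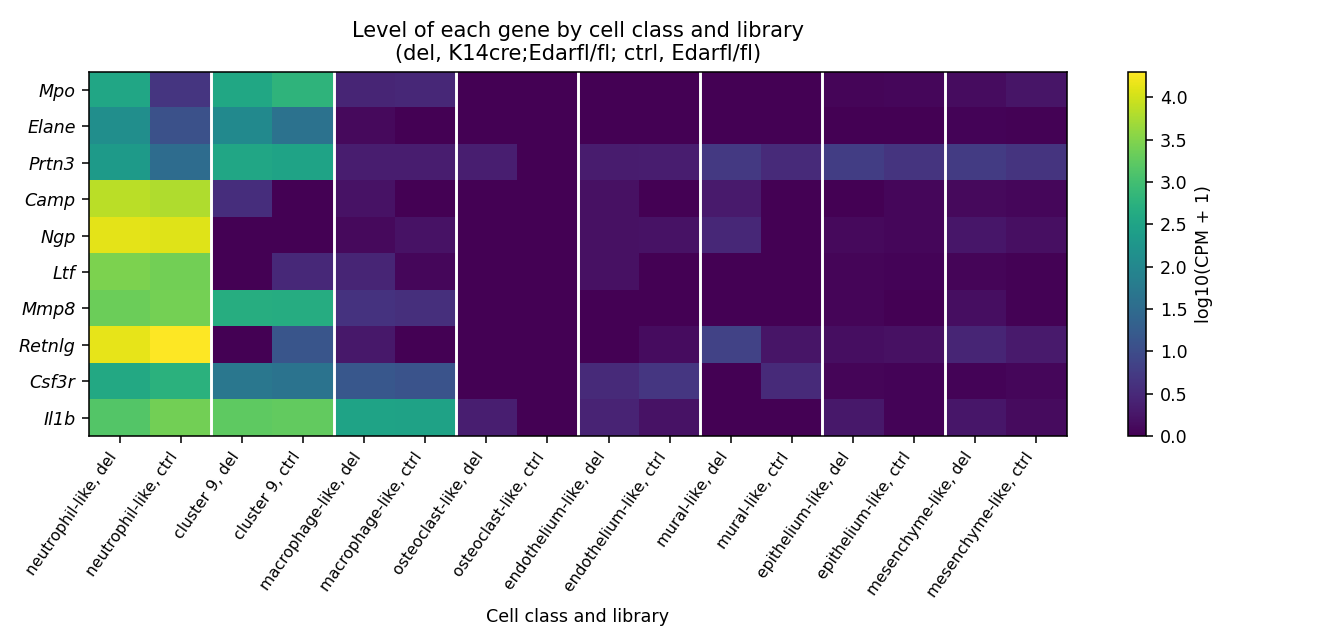
Level of each gene (rows) as log10(CPM + 1) in 8 cell classes, with K14cre;Edarfl/fl left of Edarfl/fl in each pair of columns. Camp, Ngp, Ltf and Retnlg stand out in neutrophil-like cells, Mmp8 and the primary granule genes also in cluster 9, and Il1b also in cluster 9 and macrophage-like cells.

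Prtn3 had a second, low level in mesenchyme-like and epithelium-like cells. Only 43.4% of its UMIs in kept deletion cells and 40.3% in kept control cells lay in the gate, although Elane, its neighbour, had 76 of 80 UMIs and 22 of 24 UMIs there. Mesenchyme-like cells held 170 Prtn3 UMIs (4.59 CPM) in the deletion and 145 (3.49 CPM) in the control library, spread over 159 and 134 cells, and epithelium-like cells held 34 and 36. The level was highest in mesenchyme-like cluster 4, led by Fst and Smoc2, with 9 UMIs in 235 deletion cells (6.39 to 26.5 CPM) and 18 UMIs in 331 control cells (9.74 to 26.0 CPM). Endothelium-like cells stood at 1.11 and 1.24 CPM. As annotated in GENCODE, the Prtn3 gene overlaps Plppr3, a brain-enriched lipid phosphatase-related gene on the opposite strand, by 159 bases. These bases, 79874476 to 79874634, lie before the RefSeq start of Prtn3, whose promoter window is 79879417 to 79879666. Plppr3 had 18.6 and 16.4 CPM in cluster 4 and 1 and 2 UMIs in the whole gate. Whether the counting used strand is not given in the sources used here, so reads within those 159 bases cannot be assigned to either gene. How many of the Prtn3 UMIs lie there was not tested. Mpo also had single UMIs in mesenchyme-like cluster 7, led by the dentin matrix gene Dspp, with 11 UMIs in 11 deletion cells and 27 UMIs in 27 control cells. Its antisense partner Gm11505 had none in either library.

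Secondary granule genes followed the gate more closely than Il1b did. Among cells with 5 to 19 UMIs of S100a8 and S100a9, secondary granule UMIs were found in 11.3% of 53 deletion cells and 0 of 33 control cells, Retnlg or Mmp8 in 62.3% and 57.6%, and Il1b in 66.0% and 84.8%. Among cells with 20 or more, the shares were 50.0% and 47.4% for secondary granule genes, 93.0% and 94.2% for Retnlg or Mmp8 and 50.7% and 55.2% for Il1b. Among cells with none, they were 0.269% and 0.217%, 0.363% and 0.247%, and 1.36% and 1.62%.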

How the data were processed

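Values are whole-number UMI counts of each gene in each barcode, which the authors deposited without normalization. STARsolo and mm10 are named in the submitters' processing notes, with no version. Members and gene lists were chosen with earlier results of these data known. Barcodes with at least 500 genes and at most 20% mitochondrial UMIs were kept, leaving 15487 deletion and 13431 control barcodes. Scrublet in scanpy 1.11.5 removed 243 and 176 of them as doublets. Cells of both libraries were clustered together (2000 variable genes without members, S100a8 and S100a9, 30 components, 15 neighbours, Leiden resolution 1). A cluster was named from a marker list when at least 3 of its genes were detected in 25% of its cells and the list's median log2 level over other cells was at least 1 and led the next list by 1. Where no list reached 1, a cluster with at least 3 mesenchyme markers detected was called mesenchyme-like; those clusters had 6 to 8 of 9. Both rules were set after seeing the data. UMIs were summed per library and scaled to CPM. With 1 library per group no p-value was computed. Levels have exact Poisson intervals, shares exact Clopper-Pearson intervals and ratios conditional binomial intervals. Named genes were all members, the 6 genes most correlated with each group, and from each further list the 3 with the most UMIs and those called. Genes named for single cells, cluster leaders, Cebpe, Fcnb, Chil3, Cxcr2, Mcm5 and Csf3 were chosen after their values were seen.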

Additional observations from a re-analysis of the deposited data

Results flagged for a closer look

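Barcodes removed as doublets held primary granule UMIs in the deletion library and not in the control library. Mpo had 70 UMIs and Elane 23 UMIs in the 243 doublet-called barcodes of the deletion library, against 0 and 0 in the 176 of the control library. Almost all came from 1 barcode with 9360 UMIs, which held 67 Mpo, 23 Elane, 73 Prtn3, 50 Camp and 10 Ngp UMIs. Whether it was a doublet was not tested. It was left out of every level in the report. Groups of 1 library allow no search for outlying samples.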

How the results depend on the processing

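No paired analysis was possible because the libraries share only 1 replicate number. Elane was called under every alternative but the gate at 1 or more UMIs, where 0 members and 3.16% of all genes were called (3.99% as reported). Its call rests on few cells, since 2 deletion cells held 39 and 31 of its 76 UMIs there. An alternative without both cells was not run. Elane and Il1b (2 members) were called with the stricter gate (5.92% of all genes), with doublets kept (4.87%) and with cells thinned to 1000 UMIs (5.91%), Elane, Retnlg and Csf3r (3) with cells of at least 1000 genes (6.20%), and Mpo, Elane, Prtn3 and Il1b (4) in the neutrophil-like cluster alone (10.5%). Over 12 alternatives the Il1b log2 ratio ran from -1.30 to -0.49 and that of Elane from 1.65 to 3.39. Of 120 alternative log2 ratios 80 stayed within the main counting interval and 8 changed sign, those of Mpo (3), Ngp (2), Mmp8 (2) and Retnlg (1). The gated share was 2.66% in deletion and 2.79% in control cells at 1 or more UMIs, 0.669% and 0.868% with the stricter gate, and 0.558% and 0.854% with cells of at least 1000 genes; without macrophage-marked cells it was 0.981% in the control library. Leaving those cells out also gave 29.5% of deletion and 36.9% of control cells in the middle index bin and 20.8% of control cells in the lowest. Over all neutrophil-like cells the highest bin held 33.3% and 52.6%. The share of neutrophil-like Il1b UMIs in cells with secondary granule UMIs was 5.63% in the deletion and 1.84% in the control library; it was 14.3% and 9.94% where 1 UMI sufficed, 0.433% in the deletion library where 10 were needed, and 0% there after thinning. The Retnlg log2 ratio in cells with secondary granule UMIs was -1.00 where 10 were needed, -0.61 after thinning and -0.32 with fewer than 2 cell cycle UMIs. The causes were not tested, beyond what each alternative leaves out. Keeping doublets gave no levels by cell class, since doublets were not clustered, and this alternative was not run. Alternatives for the neutrophil-like cluster, its split, the absent cell filter and the richest cell were chosen after seeing the data. Low counts limit Mpo, Elane, Prtn3 and Csf3r most.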
